A study of Homo sapiens with 8 samples.

Results

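Origins of replication were described here in their broadest form: the origins of HCT116 cells that spanned 1500 bp or more. HCT116 is an established colon cancer line of epithelial cells. SNS-seq, in which short nascent strands are purified by size and by λ-exonuclease digestion and then sequenced, was done on HCT116 p53−/− cells, called WT, and on their derivatives ORC1Δ, ORC2Δ, and ORC5Δ, which were made with CRISPR–Cas9, with 2 replicates per line and 8 samples. All 4 lines, the WT control included, lack p53, and no agent was given. For the ORC2Δ line, whether a trace of a shortened ORC2 protein remains has been debated. The broad origins were selected on width alone, in each of the 3 tables that set WT against one knockout line, on chromosomes 1 to 22 and X. They numbered 371 of 42156 origins (0.880%) in the table of WT and ORC1Δ, 432 of 44170 (0.978%) with ORC2Δ, and 420 of 46463 (0.904%) with ORC5Δ. An origin in a table is the union of the overlapping MACS2 peaks of both lines. Its width therefore comes from the same reads as its counts, so the read counts below describe the origins chosen and carry no test. The authors merged the replicates of a line before counting, so replicate error is not known and intervals cover counting error only.

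Replication starts at origins, where the origin recognition complex (ORC) helps to load the MCM2–7 double hexamer, the core of the replicative helicase. Mammalian origins have no single consensus sequence and are known to be frequent at CpG islands, at gene starts, and near runs of G that can fold into G-quadruplexes. Minisatellites are tandem arrays of units longer than those of microsatellites, are often found towards chromosome ends, and can carry most of their G on one strand. GC skew, the difference of G and C over their sum, measures this asymmetry.

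The broad origins of the 3 tables merged into 535 regions, and the sequences of 6 of them include the 2 kinds that recurred. The lines below give 240 bases of each on the forward strand of hg38. In the first 5 lines capitals mark one stretch as long as the most common distance between repeated short words. That stretch is one copy of a tandem repeat, except in the chrX line. In the chrX line, the 143 bases of the label are only this distance, not a repeat copy. In the chr22 line, the 60-base copy is itself built of shorter, similar units. Only 12.3% of the words of the whole chrX region were repeated, which is under the threshold used below to count a repeat. In the last line capitals mark every CpG.
Widest, 27-base copies, chr6:168235129-168235368: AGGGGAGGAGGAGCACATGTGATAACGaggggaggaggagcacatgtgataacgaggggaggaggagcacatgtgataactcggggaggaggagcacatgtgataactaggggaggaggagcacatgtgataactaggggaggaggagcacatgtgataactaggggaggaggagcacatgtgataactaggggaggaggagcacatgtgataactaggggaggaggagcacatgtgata
Next densest, 60-base copies, chr22:19726376-19726615: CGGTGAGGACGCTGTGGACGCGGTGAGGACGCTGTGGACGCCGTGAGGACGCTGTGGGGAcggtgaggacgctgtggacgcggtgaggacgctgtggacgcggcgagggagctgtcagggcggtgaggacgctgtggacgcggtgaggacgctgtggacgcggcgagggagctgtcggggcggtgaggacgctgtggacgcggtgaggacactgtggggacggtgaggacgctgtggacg
Higher in the 3 knockout lines, 143-base copies, chrX:565325-565564: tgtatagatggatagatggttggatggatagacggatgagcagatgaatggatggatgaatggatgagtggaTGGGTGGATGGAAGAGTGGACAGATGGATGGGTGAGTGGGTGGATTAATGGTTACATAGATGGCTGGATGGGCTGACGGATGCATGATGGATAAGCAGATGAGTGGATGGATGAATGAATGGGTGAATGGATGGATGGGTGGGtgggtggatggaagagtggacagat
Highest fold, 33-base copies, chr19:302770-303009: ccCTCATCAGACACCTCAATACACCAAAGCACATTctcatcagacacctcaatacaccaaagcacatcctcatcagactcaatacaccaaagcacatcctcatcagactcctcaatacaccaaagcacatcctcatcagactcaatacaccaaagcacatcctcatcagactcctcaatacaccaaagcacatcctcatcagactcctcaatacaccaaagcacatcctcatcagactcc
RPH3AL intron, 17-base copies, chr17:242435-242674: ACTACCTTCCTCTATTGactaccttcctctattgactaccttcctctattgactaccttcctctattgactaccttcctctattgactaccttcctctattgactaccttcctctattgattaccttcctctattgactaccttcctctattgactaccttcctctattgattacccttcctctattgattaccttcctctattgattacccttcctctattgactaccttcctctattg
MXI1 start, chr10:110227091-110227330: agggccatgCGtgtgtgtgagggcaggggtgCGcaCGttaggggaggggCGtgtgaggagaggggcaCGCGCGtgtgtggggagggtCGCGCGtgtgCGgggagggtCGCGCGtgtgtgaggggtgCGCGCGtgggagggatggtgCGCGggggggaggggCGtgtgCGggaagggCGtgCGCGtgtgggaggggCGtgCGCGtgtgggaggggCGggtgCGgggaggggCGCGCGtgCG
The first is from the widest region, in which 101 of the 240 bases shown are G and 27 are C. The next is from a region that held more WT reads per kb than any other but the first. The next pair is from regions with more reads in knockout cells, one with 106 G and 10 C on the forward strand and one with 15 G and 94 C. The RPH3AL sequence, with 14 G and 82 C, had fewer reads in all 3 knockout lines. The last, from the start of MXI1, a MAX partner that opposes MYC, holds 33 CpGs and is 76.7% G and C.

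Broad origins had a median width of 1692, 1688, and 1680.5 bp in the tables of ORC1Δ, ORC2Δ, and ORC5Δ, against 534, 540, and 536 bp for all origins. Those of 2000 bp or more numbered 70, 81, and 68, and the widest spanned 4071, 4074, and 4125 bp. They covered 2.65%, 2.91%, and 2.68% of the bases in origins and held 3.91%, 4.25%, and 4.01% of the WT reads. In the knockout lines they held 4.09%, 4.56%, and 4.04% of the reads. Read density also rose with width, in RPM, a unit that divides each count by all reads of its column and scales it to a common depth. In the table of ORC1Δ, the median was 32.7 WT RPM per kb in origins under 500 bp, 50.3 at 1500 bp and up to 2000 bp, and 61.7 at 2000 bp or more. A broad origin held a median of 584, 547.5, and 553.5 WT reads and 654, 726, and 712.5 reads of the knockout line. Over all origins these medians were 114, 112, and 110 WT reads and 120, 128, and 137 reads of the knockout line. Total reads in origins ranged from 6416892 to 6878409 for WT and from 6691088 to 8523971 for the knockout lines.

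**Figure D1:**
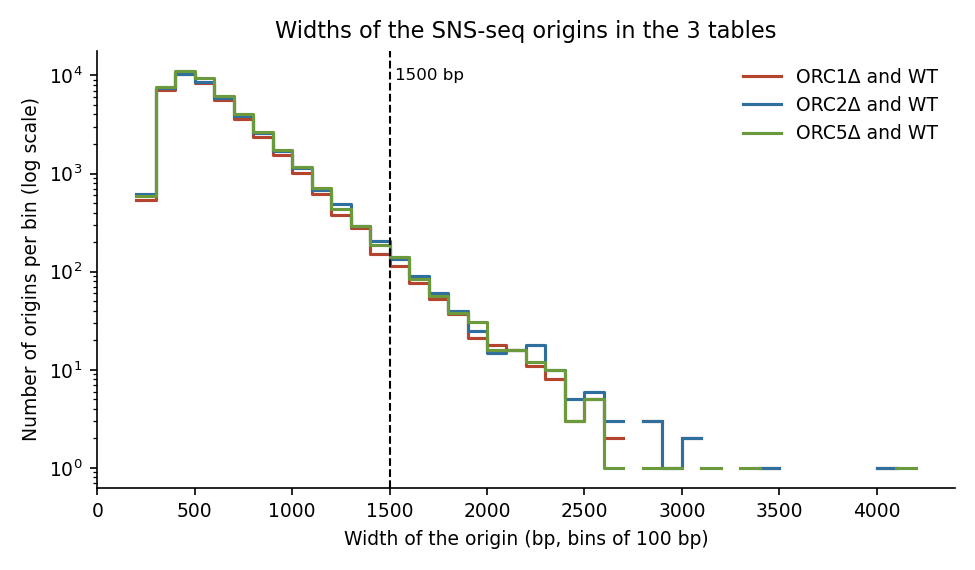
Number of origins (log scale) by width in bins of 100 bp for the 3 tables, with the cut of 1500 bp dashed. The counts fall without a step at the cut, beyond which lie 371, 432, and 420 origins.

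The cut fell in a continuous distribution. Just inside it, at 1500 bp, lay origins on chromosomes 19, 10, and 4, from the tables of ORC1Δ, ORC2Δ, and ORC5Δ, with log2 folds of −0.23, −0.28, and −0.04 in the knockout line over WT. Just outside, 1 bp narrower, lay 3 origins of the ORC2Δ table, 1 on chromosome 1 and 2 on chromosome 2, with log2 folds of −0.15, 1.29, and −0.11.

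Most broad origins were single peaks in both lines rather than chains of neighbouring peaks. In the tables of ORC1Δ, ORC2Δ, and ORC5Δ, 273, 301, and 294 were made of exactly 1 peak of each line. Those with 2 or more peaks of one line numbered 65, 76, and 81, and no line had more than 3 peaks in one of them. In 129, 162, and 165, a single peak of 1500 bp or more was present in both lines, while in 31, 31, and 33 only the union of peaks reached that width. Among those with 1 peak of each line, the knockout peak was the wider in 140 and the WT peak in 133 with ORC1Δ, and the median difference was 3 bp. With ORC2Δ and ORC5Δ, the knockout peak was the wider in 208 and 214 and the WT peak in 93 and 79, with median differences of 42 and 51 bp. The ORC2Δ and ORC5Δ columns also held more reads than WT, and the part of depth in these widths was not tested. On the lists of single lines, peaks of 1500 bp or more numbered 228 of 30195 (0.755%) in WT, 241 of 33530 (0.719%) in ORC1Δ, 335 of 37811 (0.886%) in ORC2Δ, and 324 of 41328 (0.784%) in ORC5Δ cells. The 95% Wilson interval was 0.664% to 0.859% for WT and 0.796% to 0.986% for ORC2Δ, and these overlap.

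The broad origins were rich in G and C. Their median GC content was 59.7%, 60.0%, and 60.3% in the 3 tables, in the order ORC1Δ, ORC2Δ, and ORC5Δ, against 52.5%, 53.0%, and 52.9% for all origins. Medians of absolute GC skew were 0.457, 0.436, and 0.40, against 0.356, 0.337, and 0.338. In the central 500 bp, where every origin gives the same length of sequence, the medians of the broad origins were 0.503, 0.482, and 0.453, so the asymmetry was not confined to their flanks.

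Of the features counted, tandem repeats had the largest ratio of shares between broad and all origins. A repeat was counted where at least 20% of the 20-base words of an origin occurred more than once in it, a threshold chosen after the data were seen. This held for 168 of 371 (45.3%), 193 of 432 (44.7%), and 168 of 420 (40.0%) broad origins, against 6.73%, 6.62%, and 6.05% of all origins. In the central 500 bp the shares were 37.5%, 37.7%, and 33.1%, against 7.05%, 7.01%, and 6.4%. At 2000 bp or more, 62.9%, 63.0%, and 58.8% of whole origins qualified. Of the 535 merged regions, 96 had at least 50% repeated words. Their most common distance between copies had a median of 40 bp, and it lay between 10 and 100 bp in 83 of them, which is the unit length of a minisatellite. Runs of at least 4 exact copies of ATCC, in any rotation and on either strand, were found in 39 (10.5%), 36 (8.33%), and 25 (5.95%) of the broad origins and in 2.43%, 2.28%, and 2.22% of all origins.

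CpG islands were the other recurrent feature. An island overlapped 137 (36.9%), 169 (39.1%), and 171 (40.7%) broad origins, against 13.9%, 15.0%, and 14.5% of all origins. A start of a protein-coding transcript lay in 58 (15.6%), 73 (16.9%), and 80 (19.05%), against 4.88%, 5.38%, and 5.32%. A wide origin has more room to reach a start, and in the central 500 bp these shares were 5.93%, 7.64%, and 7.86%, against 3.98%, 4.33%, and 4.20%. For islands the shares in the central 500 bp were 28.0%, 29.6%, and 30.7%, against 13.0%, 14.0%, and 13.5%. G-quadruplex motifs, taken as at least 4 runs of 3 or more G separated by 1 to 7 bases on either strand, were present in 71.7%, 71.8%, and 74.5% of whole broad origins against 48.9%, 53.1%, and 50.4% of all. In the central 500 bp the broad origins had 46.6%, 46.5%, and 51.2%, against 45.5%, 49.1%, and 46.9%, so this difference largely went with the length of sequence searched.

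**Figure D2:**
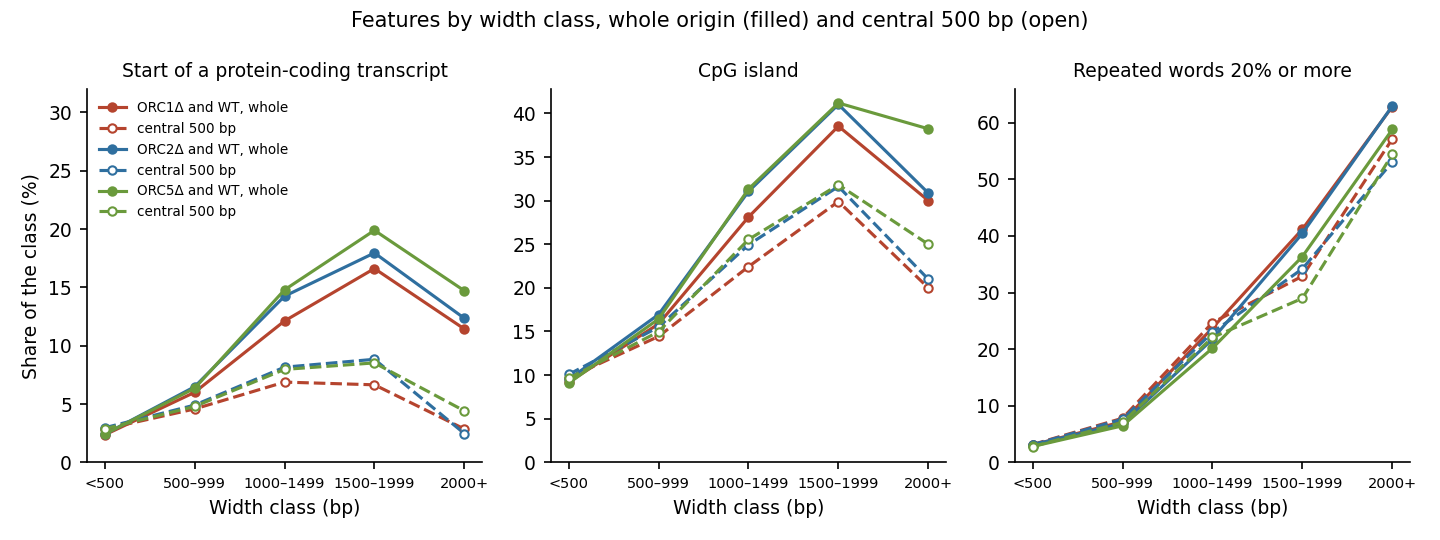
Share of origins (%) in each width class with a start of a protein-coding transcript, a CpG island, or at least 20% repeated words, in the whole origin (filled) and in its central 500 bp (open), for the 3 tables. The share with repeats climbs to between 58.8% and 63.0% in the widest class, while the shares of whole origins with starts and islands are highest between 1500 and 2000 bp.

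The 2 features seldom coincided at gene starts. Of the 535 regions, 203 held an island, 215 had at least 20% repeated words, 52 had both, and 169 had neither. Among 98 regions at a protein-coding start, 4 had the repeats. By place, 98 regions lay at a start, 58 at another exon, 189 in an intron only, 52 in a gene of another kind, and 138 in no annotated gene. Regions with a protein-coding gene were 345 (64.5%), and they touched 351 genes, or 1.76% of 19962.

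Broad origins were unevenly placed along the chromosomes. Within 5 Mb of a chromosome end lay 165 (44.5%), 192 (44.4%), and 174 (41.4%) of them, against 18.97%, 19.3%, and 18.4% of all origins. Chromosome 19 held 73 (19.7%), 75 (17.4%), and 79 (18.8%), against 6.74%, 6.92%, and 6.70% of all origins. Of the broad origins near chromosome ends, 108 of 165, 128 of 192, and 107 of 174 had repeated words, whereas 60 of 206, 65 of 240, and 61 of 246 of the others did.

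In the knockout lines, broad origins up by 1.5-fold outnumbered those down by as much. Above 0 on the log2 scale lay 182 of 371, 254 of 432, and 207 of 420. At 1.5-fold in RPM, 53 of 371 (14.3%) were up in ORC1Δ cells, where 7.03% of all origins were. In ORC2Δ cells 53 of 432 (12.3%) were up, against 4.65% of all, and in ORC5Δ cells 16 of 420 (3.81%), against 2.08%. The numbers down were 4 (1.08%, against 3.95%), 5 (1.16%, against 3.58%), and 0 (against 0.68%). All origins held fewer reads each, and the part of depth in these shares was not tested. The Wilson intervals of the shares up were 11.1% to 18.2%, 9.50% to 15.7%, and 2.36% to 6.10%. With 0 of 420 down in ORC5Δ cells, the interval reached 0.906%. The median log2 fold was −0.0090, 0.048, and −0.00070, against −0.014, −0.039, and −0.0032 for all origins. The largest log2 folds were 2.24, 2.42, and 1.26, and the smallest were −0.80, −0.73, and −0.57. The counting interval of the log2 fold lay above 0 in 123, 152, and 79 broad origins, below 0 in 104, 66, and 67, and held 0 in 144, 214, and 274. The 3 comparisons share the WT samples and are given side by side.

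**Figure D3:**
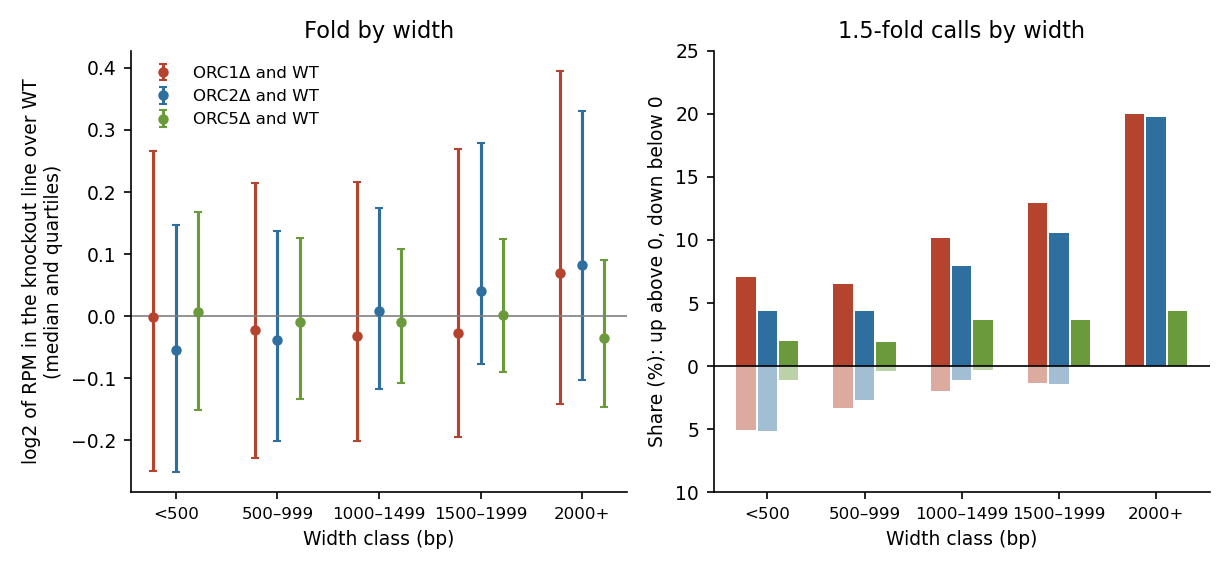
Left, median and quartiles of log2 RPM in the knockout line over WT by width class. Right, share of each class (%) called up (above 0) and down (below 0, paler) at 1.5-fold. The medians stay within 0.1 of 0, while the share up reaches 20%, 19.8%, and 4.41% at 2000 bp or more in ORC1Δ, ORC2Δ, and ORC5Δ cells.

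**Figure D4:**
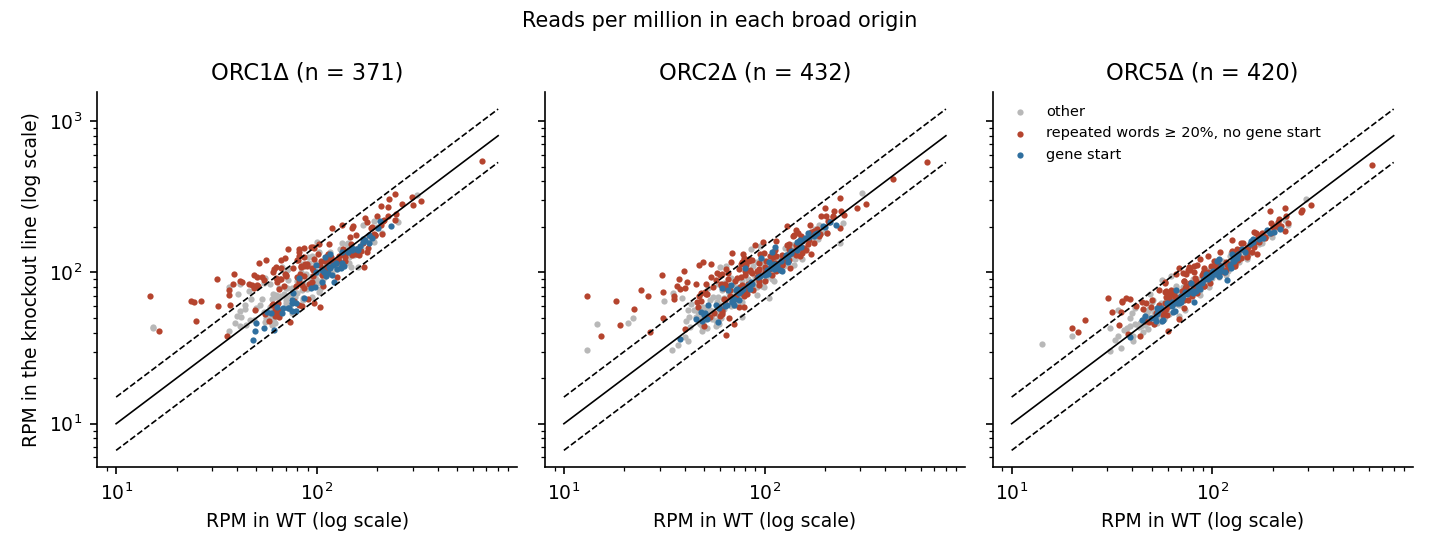
RPM of each broad origin in the knockout line against WT, both on log scales, coloured by gene start and by repeated words, with lines for equality (solid) and for 1.5-fold (dashed). The gene starts lie inside the dashed lines in all 3 panels, and most points above the upper line are repeats with low RPM in WT.

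The calls were unevenly spread over the kinds of broad origin. At CpG islands, 4 of 137 (2.92%), 7 of 169 (4.14%), and 3 of 171 (1.75%) were up. All origins at islands were up in 1.07%, 1.47%, and 0.565%. Of the broad origins at islands, 2, 2, and 0 were down, beside 3.95%, 3.58%, and 0.68% of all origins of any kind. At starts of protein-coding transcripts, 0 of 58, 0 of 73, and 0 of 80 were up, beside 0.340%, 0.674%, and 0.202% of all origins at starts. None was down in any of the 3 lines, beside 14.1%, 2.19%, and 0.324% of all origins at starts. The upper bounds of the Wilson intervals of these shares were 6.21%, 5.00%, and 4.58%. Broad origins held a median of 584 WT reads in the table of ORC1Δ and all origins 114. The part of depth in the shares called was not tested. The log2 folds at starts had medians of −0.18, −0.0061, and −0.056. They spanned −0.56 to 0.21 with ORC1Δ, −0.31 to 0.42 with ORC2Δ, and −0.40 to 0.21 with ORC5Δ. In the introns of protein-coding genes, 29 of 128 (22.7%), 27 of 154 (17.5%), and 8 of 143 (5.59%) were up, beside 7.90%, 4.92%, and 2.38% of all intronic origins. Outside annotated genes, 17 of 99, 22 of 118, and 7 of 106 were up, beside 8.41%, 6.4%, and 2.64%. Among those with repeated words, 43 of 168 (25.6%), 41 of 193 (21.2%), and 11 of 168 (6.55%) were up. Repeats of any width were up in 25.1%, 21.3%, and 12.3%, so the broad repeats did not exceed them in ORC2Δ and ORC5Δ cells and lay within 1 percentage point of them in ORC1Δ cells. Among broad origins without the repeats, 10 of 203 (4.93%), 12 of 239 (5.02%), and 5 of 252 (1.98%) were up, beside 5.73%, 3.48%, and 1.42% of all such origins.

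Repeated sequence with less strand asymmetry was seldom up. Broad repeats with an absolute GC skew under 0.6 were up in 4 of 80, 3 of 92, and 0 of 93. Their median log2 folds were −0.074, −0.0017, and −0.029. Repeats of any width at that skew were up in 8.78%, 6.98%, and 2.79%. Broad repeats with a skew of 0.6 or more were up in 39 of 88 (44.3%), 38 of 101 (37.6%), and 11 of 75 (14.7%). Their medians were 0.47, 0.47, and 0.19. Repeats of any width at that skew were up in 54.3%, 47.0%, and 31.2%. Broad origins of that skew without the repeats were up in 9 of 29 (31.0%), 9 of 29 (31.0%), and 3 of 25 (12%). Their medians were 0.33, 0.27, and 0.11. Such origins of any width were up in 45.9%, 35.9%, and 19.9%, so the broad ones exceeded all origins in none of these groups. GC content moved with skew: at a skew of 0.8 or more its median was 53.1%, 53.1%, and 53.2%, against 63.4%, 64.5%, and 64.5% at a skew under 0.2. Over the broad origins, Pearson's r of the log2 fold was 0.66, 0.53, and 0.43 with absolute skew and −0.59, −0.45, and −0.41 with GC content (n = 371, 432, and 420), as a description of points that share their libraries. The part of GC content apart from skew was not tested. At a skew of 0.8 or more, 31 of 58, 34 of 63, and 12 of 50 broad origins were up. All origins of that skew, whatever their width, were up in 69.3%, 62.6%, and 43.4%, so the broad ones did not exceed them.

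**Figure D5:**
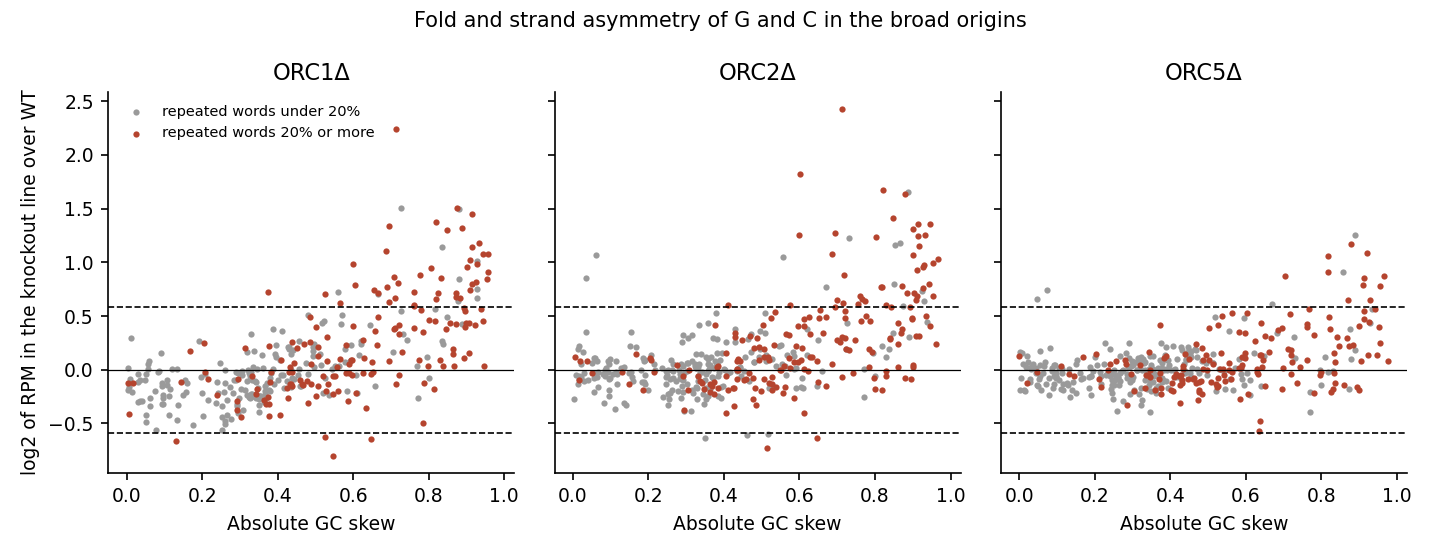
log2 RPM in the knockout line over WT against the absolute GC skew of each broad origin, with repeats in red and the 1.5-fold limits dashed. In ORC1Δ and ORC2Δ cells the points above the upper limit lie mostly at a skew of 0.6 or more, in repeats and in other sequence alike.

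Some broad origins were seen in the knockout line without a WT peak. They numbered 22, 39, and 31, of which 15, 21, and 10 were up, and their median log2 folds were 1.00, 0.66, and 0.20. Those without a peak of the knockout line numbered 11, 16, and 14. A row without a WT peak had to be called in the knockout line to enter the table, so a high fold there goes with how the row was chosen. Among broad origins that did have a WT peak, 38 of 349, 32 of 393, and 6 of 389 were up. Of all origins, with or without a WT peak, 7.03%, 4.65%, and 2.08% were up.

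Of the 535 regions, 294 were broad in all 3 tables, 100 in 2, and 141 in 1. Among the 294 regions broad in all 3, 31, 27, and 12 were up in ORC1Δ, ORC2Δ, and ORC5Δ cells, beside 7.03%, 4.65%, and 2.08% of all origins. Of these regions, 11 were up in all 3 lines and 33 in at least 1, and no share over all origins is given for these counts. Of the same regions, 6 were down in at least 1 line, 1 was down in 2 or more, and none was up in one line and down in another. The same WT reads enter each table, so these counts are not independent of each other.

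The widest region, at chr6:168233893-168238017, lies 54812 bp from DACT2, the nearest protein-coding gene, within a gene of another kind, and 91.0% of its words were repeated at a 27-base period. It held 663 RPM in WT and 542 in ORC1Δ, 641 and 533 in the table of ORC2Δ, and 621 and 512 in that of ORC5Δ. The knockout value was the lower in each table, with log2 folds of −0.29, −0.27, and −0.28. Next in width, the region at chr3:133414682-133418171, lies in an intron of BFSP2, which encodes a lens filament protein. Its C-rich forward strand had a skew of −0.83, yet its log2 folds were 0.09, −0.06, and −0.18. Another of the widest, at chr22:23549975-23553064, had a skew of −0.93 and 9.74% repeated words. It had 99.7 RPM in WT and 158 in ORC1Δ cells, and 95.3 and 149 with ORC2Δ. In the table of ORC5Δ, where the row spanned 1643 bp, it had 48.8 and 72.3. MYEOV, a gene named for its overexpression in myeloma, held one of the widest, at chr11:69322308-69325225, in an intron. No WT peak lay in it, although WT reads were present (71.8, 69.1, and 68.0 RPM), and its RPM was 142, 134, and 107 in the knockout lines.

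Other wide regions lay in introns of ZFPM1, a GATA cofactor, and DLGAP2, a scaffold protein of synapses. The ZFPM1 region had log2 folds of 0.25, 0.30, and −0.07. The DLGAP2 region, with 71.5% repeated words at a 41-base period, had 0.41, 0.19, and 0.07. Another of the 8 widest, at chr4:1426235-1429334 and 19792 bp from NKX1-1, had −0.14, −0.33, and −0.23. None of these 3 regions passed 1.5-fold in any line.

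By reads per kb, the widest region was also the densest, with 163 WT RPM per kb in the ORC1Δ table. It was followed by chr22:19725001-19727954 with 156, where GC content was 69.5% and copies recurred every 60 bases, by a region of chromosome 16 at chr16:46389631-46391185 with 146, and by an intron of PTPRN2 with 142. PTPRN2 encodes a phosphatase-like protein of secretory vesicles. The log2 folds of these 4 regions lay between −0.29 and 0.25 in all 3 lines, and none was called up or down.

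The regions with the highest folds had few reads in WT. At chr19:302525-304278, 1294 bp from MIER2, 93.6% of words were repeated with a 33-base period. RPM was 14.8 in WT and 69.9 in ORC1Δ cells, and 13.1 and 70.3 in the table of ORC2Δ, for log2 folds of 2.24 (95% interval 1.92 to 2.57) and 2.42 (2.10 to 2.77). The ORC5Δ table held no row there. An intron of CAMTA1, a calmodulin-binding transcription activator, had 23.5 and 64.3 RPM with ORC1Δ, 22.3 and 57.1 with ORC2Δ, and 20.1 and 42.7 with ORC5Δ, for log2 folds of 1.45, 1.36, and 1.09. Its skew was −0.92. An intron of EIPR1, which acts in endosomal traffic, had log2 folds of 1.38, 1.67, and 1.06 at a skew of −0.82 and a 35-base period. A region at chr16:1032568-1034741, between genes, had 1.51, 1.64, and 1.17 at a skew of −0.87, with copies every 4 bases. Another, at chrX:565217-566802, had 15.3 RPM in WT and 43.2 in ORC1Δ, 14.6 and 45.8 with ORC2Δ, and 14.1 and 33.7 with ORC5Δ, at a skew of 0.88, from only 97 or 98 WT reads. It lies in the pseudoautosomal part of chromosome X, whose copy on chromosome Y has the same sequence. All 4 of these were up in the 3 lines. In the table of ORC1Δ, no WT peak lay at chr19:302525-304278, in the CAMTA1 or EIPR1 region, or at chr16:1032568-1034741. These rows had to be called in the knockout line to enter the table, so a high fold there goes with how they were chosen.

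Other high values were seen in fewer tables. An intron of GPR173, an orphan receptor gene, was up, with log2 folds of 1.51 in ORC1Δ and 1.23 in ORC2Δ cells, with only 1.05% repeated words, at a skew of 0.73. An intron of CAMSAP1, whose product binds the minus ends of microtubules, was broad in the ORC2Δ table alone, with a log2 fold of 1.82.

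The lowest folds were smaller in size. The intron of RPH3AL, a Rab effector of exocytosis, had 73.1 RPM in WT and 46.8 in ORC1Δ cells, 70.6 and 45.3 with ORC2Δ, and 68.3 and 49.2 with ORC5Δ. Its log2 folds of −0.64, −0.64, and −0.48 were called down in the first 2 lines, at a skew of −0.64 and 82.4% repeated words. In the table of ORC1Δ, no ORC1Δ peak lay in it. The row had to be called in WT to enter that table, so a low fold there goes with how it was chosen. In ORC1Δ cells, an intron of PRKAR1B, a regulatory subunit of protein kinase A, had a log2 fold of −0.80, and a region 1535 bp from FOXL3 had −0.66, both called down. The same origins had values of 0.00051 and −0.02 in ORC2Δ and −0.05 and −0.04 in ORC5Δ cells. In ORC2Δ cells, introns of MCF2L and of ATP11A, a phospholipid flippase, had −0.73 and −0.64, both called down, with values of −0.28 and −0.01 in ORC1Δ cells. An exon of NCAPD3, a condensin subunit, had −0.38, −0.37, and −0.33, and the start of RPH3A, another Rab effector, had −0.26, −0.25, and −0.40, both below 0 in each line and neither down by 1.5-fold. Between genes, chr17:26773158-26775735 had −0.56, −0.33, and −0.27. A repeat between genes at chr4:182831546-182833302, with 40.8% repeated words and a skew of −0.61, had −0.36, −0.40, and −0.57. These regions were not down by 1.5-fold in any line either.

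Several genes held more than 1 broad region: 19 held 2 or more, and 3 held 3 or more. PTPRN2 held 5, more than any other gene, and was looked at for that reason after its values were seen. At chr7:157764975-157766507, with a skew of −0.97, its log2 folds were 1.05, 1.03, and 0.88. At chr7:158013342-158014881, with a skew of −0.87, they were 0.71, 0.76, and 0.65. Another intronic repeat, at chr7:158098567-158100072 with a skew of −0.43, had −0.26, −0.34, and −0.31, and the densest, at −0.65, had 0.08, −0.11, and −0.15. The region at a PTPRN2 start, at −0.19, had −0.27, −0.01, and −0.07. Within this one gene, the 2 most skewed regions were up in each line, at whatever width their row had there, and the other 3 were not. RPH3AL held 4 regions, of which only the one given above was down, and MED16, a Mediator subunit, held 3 with log2 folds between −0.18 and 0.03.

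In most gene lists of developmental, replication, and housekeeping functions 0 to 3 genes held a broad region, beside 1.76% of all protein-coding genes. Of 138 homeobox genes, which encode regulators of body patterning, 3 held a broad region: EMX2, PAX2, and PAX7. The EMX2 start had log2 folds of −0.32, −0.01, and −0.06, and the PAX2 start, broad in the ORC2Δ table only, had −0.12 there. Of 121 other developmental transcription factor genes, GATA1, the erythroid factor, held 1, with 0.25 in ORC5Δ cells. Of 48 genes of the WNT pathway, 84 of core histones, and 83 of ribosomal proteins, none did. Of 13 genes of the MYC network, MXI1 and MLXIPL, a glucose-responsive factor, held 1 each. The MXI1 start was broad in all 3 tables with 207 RPM in WT and 218 in ORC1Δ, 200 and 201 with ORC2Δ, and 193 and 182 with ORC5Δ, and its intervals of the log2 fold held 0 in each table. Of 29 genes of licensing and firing, TICRR, needed to fire origins, held 1, with 0.15 in ORC5Δ cells.

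Zinc-finger genes held the most in number, but theirs was the longest list. Their share was close to the 1.76% of all protein-coding genes. Of 551, 10 had a broad region (ZNF160, ZNF275, ZNF432, ZNF467, ZNF574, ZNF579, ZNF841, ZNF846, ZNF91, and ZSCAN18), and the medians of their log2 folds were −0.22, −0.098, and −0.031, with none up or down. The start of ZNF467 had −0.21, −0.13, and −0.18, and 2 regions of ZNF574 had −0.25, −0.10, and −0.33 and 0.21, 0.33, and 0.18. An intron of ZNF91, a repressor of retrotransposons, was broad with ORC5Δ only, at −0.18. Of 88 cadherin genes, CDH13 and CDH4 each held 1, both repeats, with 0.49, 0.20, and 0.20 and with 0.13, 0.12, and 0.06. Of 19 mucin genes, MUC6, whose long exon encodes tandem repeats, held 1 at chr11:1015830-1018693. It had 95.4 RPM in WT and 147 in ORC1Δ cells, a log2 fold of 0.62 that was called up, and 0.33 in ORC2Δ cells, which was not.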

How the data were processed

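SNS-seq of WT, ORC1Δ, ORC2Δ, and ORC5Δ lines was analysed (8 samples, 2 replicates per line, both merged in the tables). Per the submitters' processing notes, reads were trimmed with Trim Galore 0.6.4, aligned with Bowtie to hg38, and called with MACS2, and intervals were handled with bedtools; the peaks found in both replicates were kept. The deposited tables give counts of reads, without normalization, per joined origin, for WT and one knockout line. The deposited lists give positions only. The counting tool and the handling of duplicate or multiply aligned reads are not given in the sources used here, and both bear on repeats, where copies can share reads. Reads are not independent molecules.

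Broad origins had an end minus start of at least 1500 bp on chromosomes 1 to 22 and X. RPM used all reads of a line in the table, other contigs included. Calls were made at 1.5-fold, as in the study's methods, without a filter or pseudocount. Log2 folds have 95% Clopper–Pearson intervals and shares 95% Wilson intervals. No test between lines was possible. Rows that overlapped between tables were merged into regions. Genes and basic transcripts came from GENCODE release 44. CpG islands were segments over 200 bp with at least 50% GC and an observed over expected CpG above 0.6. The members and lists were chosen with earlier results of these data known.

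Regions named were the 8 widest, the 4 densest in WT, the 4 with the highest and the 4 with the lowest log2 folds that held in all 3 lines (ranked on the line nearest to 0), the 3 highest and 3 lowest per line, MXI1, up to 4 per gene list by width, and the 3 on each side of the cut. The calls were tested on simulated data. Alternatives covered the width, threshold, scaling (with edgeR's TMM factors), GC content, a filter on reads, chromosome segments, and the window for sequence features. R 4.3.3 and edgeR 4.0.16 gave the TMM factors; all else was run in Python 3.11.15 (matplotlib 3.10.9, numpy 2.4.6, pysam 0.24.0, scipy 1.17.1, pandas 2.3.3), with samtools 1.23.1 for the genome index.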

Additional observations from a re-analysis of the deposited data

Results flagged for a closer look

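Rows of 1500 bp or more were also present outside chromosomes 1 to 22 and X, on contigs that none of the comparisons used. They numbered 10 in the table of ORC1Δ, 13 in that of ORC2Δ, and 11 in that of ORC5Δ, and none lay on chromosome Y. The highest held 7674 WT reads in the tables of ORC1Δ and ORC2Δ and 7777 in that of ORC5Δ, more than the widest region of the numbered chromosomes (4255 to 4269). Their median log2 folds were 0.020, −0.12, and −0.17, with a range from −0.38 to 1.04 over the 3 tables.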

How the results depend on the processing

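No paired analysis was possible because the replicates of a line are merged in the tables, and for the same reason no replicate could be left out. Of 150 recomputed values, 61 stayed within the range set for the value reported (1.5 times for counts, the 95% interval for medians and shares). Values below follow the order ORC1Δ, ORC2Δ, and ORC5Δ. The share of broad origins up exceeded the share down at every minimum width and under every scaling run. Among origins under 500 bp, which are not broad, down calls exceeded up calls in ORC2Δ cells (5.12% against 4.35%). This was not so in ORC1Δ or ORC5Δ cells.

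Broad origins numbered 1183, 1419, and 1342 at 1200 bp and 70, 81, and 68 at 2000 bp. Widths of single-line peaks gave 228 in WT and 241 in ORC1Δ cells. At a lower threshold (0.32 on the log2 scale), 92, 100, and 47 were up and 34, 16, and 7 down. At 2-fold, 17, 23, and 4 were up and 0 down in ORC1Δ and ORC2Δ cells. The shares of all origins called at these other thresholds are not given, so these counts show no excess or lack. At 1200 bp and 1.5-fold, 144 (12.2%), 155 (10.9%), and 57 (4.25%) were up and 14 (1.18%), 16 (1.13%), and 2 (0.149%) down. Of all origins, 7.03%, 4.65%, and 2.08% were up and 3.95%, 3.58%, and 0.68% down. At 2000 bp, 14 (20%), 16 (19.8%), and 3 (4.41%) were up, beside the same shares of all origins. None were down in ORC1Δ and ORC2Δ cells, and the median log2 folds were 0.070, 0.082, and −0.035. Removing the running median over GC content gave 2 down in ORC1Δ and 2 in ORC2Δ cells, and medians of 0.16, 0.10, and 0.025. In ORC2Δ cells, TMM, median-of-ratios factors, and a median of 0 for all origins each gave 3 down, with medians of 0.086, 0.087, and 0.086. The cause of these shifts was not tested beyond the construction of each alternative.

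In the central 500 bp, median absolute GC skew was 0.503, 0.482, and 0.453. The share at a transcription start site was 5.93%, 7.64%, and 7.86% there, 0% at the midpoint in all 3 tables, and 11.4%, 12.3%, and 14.7% at 2000 bp. For exons it was 14.0%, 15.7%, and 16.9% in the central 500 bp, 4.58%, 5.79%, and 7.38% at the midpoint, and 21.4%, 21.0%, and 25% at 2000 bp. For CpG islands it was 28.0%, 29.6%, and 30.7% in the central 500 bp, 20.8%, 22.9%, and 24.05% at the midpoint, and 30.0%, 30.9%, and 38.2% at 2000 bp. For G-quadruplex motifs it was 46.6%, 46.5%, and 51.2% in the central 500 bp, 8.63%, 7.41%, and 9.52% at the midpoint, and 62.9%, 60.5%, and 70.6% at 2000 bp. With at least 50% repeated words, a threshold added after seeing the data, 77, 93, and 78 broad origins were repeats. Of these, 18 (23.38%), 15 (16.13%), and 2 (2.56%) were up. Origins of any width with such repeats were up in 25.88%, 22.97%, and 12.04%, so the broad ones did not exceed them.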
